A study of Homo sapiens with 4 samples.

Results

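The genes of cholesterol synthesis and sterol response are a fixed list of 28 human genes, taken by symbol. They serve sterol synthesis, transport, efflux and their control by the SREBP transcription factors. The list was chosen with earlier results of these data known, so its counts beside those of all genes are not independent of the data. Of the 28 genes, 25 were measured, among 19775 genes in all. CYP51A1 is named only on 2 probe sets that also name a second gene, so it was left out, and FDFT1 and NR1H2 were not analysed here. For each gene the brightest probe set, by its mean signal, is used. A probe set is a group of short probes whose signals are summarised as 1 log2 value.

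The arrays hold total RNA from KM-H2, an established cell line derived from Hodgkin lymphoma and grown under standard conditions. One group of 2 arrays is from cells that received small interfering RNA against PTPN1, a tyrosine phosphatase gene, and a second group of 2 from cells that received non-silencing RNA. No other agent or genotype is named for the groups. Within each group the arrays are technical replicates per the labels, numbered 1 and 2, so every SD, SE and p-value measures the spread between arrays and not between cultures. The number of arrays limits the precision. The smallest two-sided p that an exact permutation test of 2 against 2 arrays can give is 0.333. The labels do not say what the arrays of one number share. In bulk RNA, fewer cells of a type and less RNA per cell cannot be told apart.

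Array medians lay between 5.10 and 5.12. PTPN1 read 8.16 and 8.40 under non-silencing (number 1, then 2) and 7.002 and 7.36 under knockdown, so both knockdown arrays were lower. All 9 Hodgkin cell markers looked for, among them the receptor gene TNFRSF8 (CD30), had a mean at or above 5.11, the median of all values over all probe sets. Over genes, each by its brightest probe set, the median in the non-silencing arrays was higher, at 6.04. The markers CCL22 (5.48) and CCL17 (6.01) lay below that in the non-silencing arrays. Of 23 markers of B cells, T cells, macrophages and fibroblasts 12 lay below 5.11. The T cell gene CD3D and the collagen gene COL1A1 were among the 11 others, with lowest array values of 9.76 and 8.63.

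Cholesterol is built from acetyl-CoA. An early arm makes mevalonate and joins its isoprenoid products into squalene, and a late arm closes squalene into lanosterol and trims it to cholesterol. When sterol in the endoplasmic reticulum is low, SCAP escorts the precursors of SREBF1 and SREBF2 products to the Golgi, where they are cut into active factors that switch on nearly every gene of both arms. When sterol is plentiful, INSIG1 and INSIG2 proteins hold SCAP back, and LXR receptors, activated by oxysterols, switch on efflux pumps such as ABCA1. Dividing lymphoid cells use the pathway to build membrane.

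All 4 roles had members with clear signal. In the non-silencing arrays the median over the measured members was 9.00, against 6.04 over all genes, with a range from 4.78 (ABCG1) to 12.53 (INSIG1). Since probe sets differ in how brightly they report a transcript, these values do not rank the genes. ABCG1, a sterol efflux pump, read 4.80 and 4.77 under non-silencing and 4.66 and 4.72 under knockdown, below the median of all values on each of the 4 arrays. MVD, which makes isopentenyl diphosphate, read 5.74 and 5.70 under non-silencing and 5.63 and 5.64 under knockdown. TM7SF2, a sterol reductase of the late arm, read 6.94 and 6.97 against 6.89 and 7.08. These 3 genes varied little between the arrays.

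**Figure D1:**
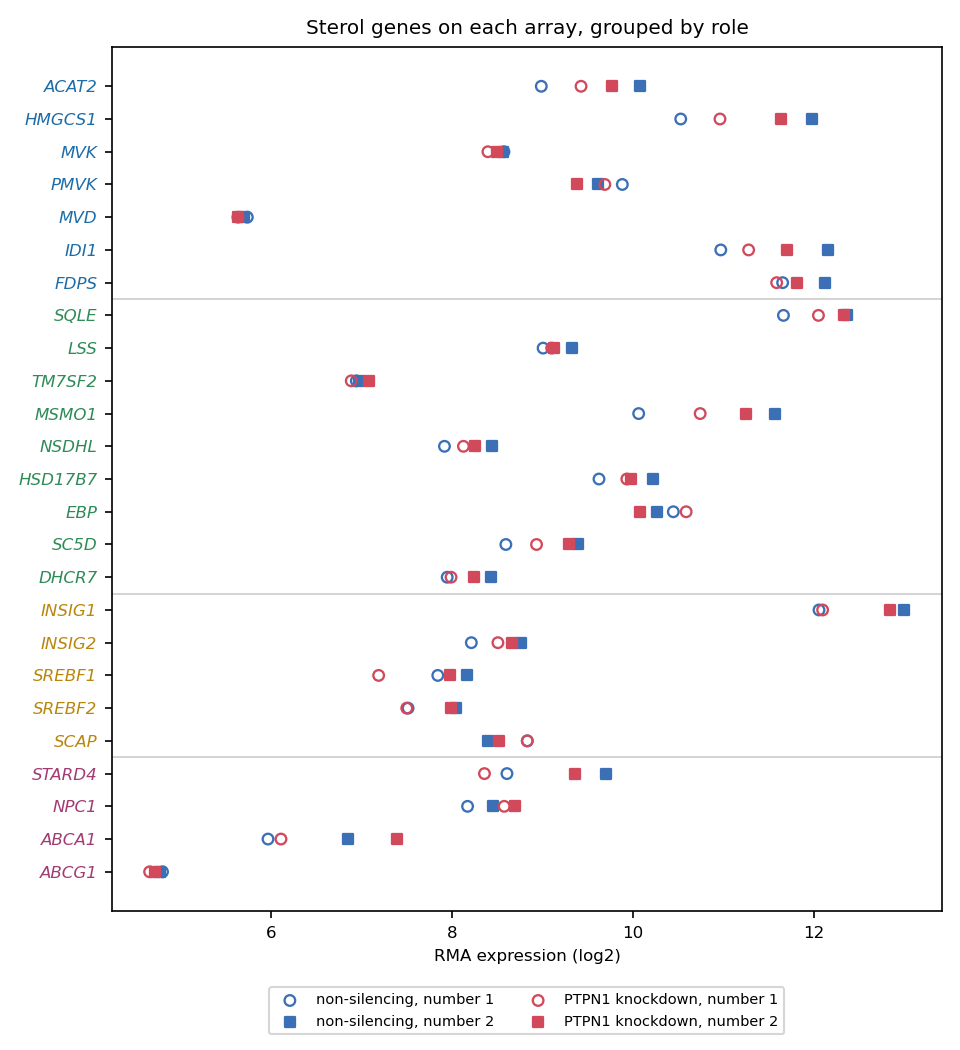
RMA expression (log2, horizontal axis) of the 25 measured genes on each of the 4 arrays, with gene names coloured by role (from the top, early arm, late arm, SREBP regulators, and transport and efflux). Circles are number 1 arrays and squares number 2 arrays, blue for non-silencing and red for PTPN1 knockdown; for 18 genes both squares lie to the right of both circles.

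Between the array numbers, most of these genes differed in one direction. The number 2 arrays read higher than the number 1 arrays for most of both synthesis arms, for INSIG1, for both SREBP genes and for the transport genes STARD4 and ABCA1. Differences here are number 2 minus number 1 on the log2 scale, averaged over both groups, and were tested in limma with the group as a term. For each gene its own spread in this fit is the disagreement of that difference between non-silencing and knockdown, not a spread among like arrays. In both contrasts limma then moderates the variance, drawing that of each gene toward a value estimated over all genes. The SE and p-values therefore do not rest on the gene's own spread alone. Of the 25 genes 21 lay above 0, with a median of 0.36, against a median of -0.02 over all genes. Those past an adjusted p of 0.05 were 6, all higher. Over all genes 9.85% passed, 5.41% as higher and 4.45% as lower. At an unadjusted p under 0.05 there were 15 members higher and 3 lower, against 12.9% and 14% of all genes (26.9% together). Both number 2 arrays lay above both number 1 arrays for 18 members and below them for 3, against 23.5% and 29.2% of all genes.

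In the early arm, HMGCS1, the synthase that makes HMG-CoA, read 10.53 and 10.96 in the number 1 arrays (non-silencing, then knockdown) and 11.99 and 11.64 in the number 2 arrays. The numbers did not overlap, and the difference was 1.07 (SE 0.19), a 2.09-fold higher signal (limma adjusted p = 0.0292). IDI1, the isomerase that readies isoprenoid units for joining, read 10.97 and 11.28 against 12.16 and 11.71. Its difference of 0.80 (SE 0.19) had a limma adjusted p of 0.0519. ACAT2, the thiolase of the opening step, differed by 0.71 (adjusted p = 0.0686). FDPS, which makes farnesyl diphosphate, read 11.66 and 11.59 in the number 1 arrays and 12.13 and 11.82 in the number 2 arrays, a difference of 0.35 (adjusted p = 0.112).

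The kinase and decarboxylase genes, whose enzymes act between HMGCS1 and IDI1, lay near or below 0. PMVK, the second mevalonate kinase, read 9.89 and 9.69 in the number 1 arrays and 9.61 and 9.39 in the number 2 arrays, a difference of -0.29 (adjusted p = 0.135). MVD differed by -0.02 and MVK, the first kinase, by 0.05. The brightest MVK probe set stood apart from its 3 dimmer ones, which differed by 0.30, 0.20 and 0.30.

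In the late arm, MSMO1, which oxidises sterol methyl groups, read 10.07 and 10.75 in the number 1 arrays and 11.57 and 11.26 in the number 2 arrays. The difference was 1.01 (SE 0.23), a 2.01-fold higher signal that only just passed (limma adjusted p = 0.0493). SQLE, the epoxidase that commits squalene to sterols, read 11.67 and 12.05 against 12.37 and 12.33, a difference of 0.49 (adjusted p = 0.0771). The sterol desaturase gene SC5D differed by 0.58, the last reductase gene DHCR7 by 0.37, the C4 demethylation genes NSDHL and HSD17B7 by 0.33 and 0.32, the cyclase gene LSS by 0.17 and TM7SF2 by 0.11. For each of these the number 2 arrays lay above the number 1 arrays, though none passed (adjusted p from 0.0516 for SC5D to 0.567 for TM7SF2). EBP, a sterol isomerase, went the other way by -0.35 (adjusted p = 0.139).

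Among the regulators, INSIG1, itself a classic SREBP target, read 12.06 and 12.10 in the number 1 arrays and 13.003 and 12.85 in the number 2 arrays. The difference of 0.85 (SE 0.11) was close to equal in the groups, at 0.94 in non-silencing and 0.75 in knockdown (limma adjusted p = 0.0162). SREBF2, the main SREBP gene of cholesterol synthesis, read 7.52 and 7.50 against 8.05 and 7.99, a difference of 0.51 (SE 0.10, limma adjusted p = 0.0362). Its 2 dimmer probe sets differed by 0.31 and 0.18, and SREBF2 was not called when the 3 were averaged. SREBF1, the SREBP gene known for fatty acid synthesis, differed by 0.56 (adjusted p = 0.0611), or 0.10 on its dimmer probe set, and INSIG2 by 0.36 (adjusted p = 0.147). SCAP was lower in both number 2 arrays, with a difference of -0.37 (adjusted p = 0.0818).

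Of the transport genes, STARD4, a soluble sterol carrier, read 8.61 and 8.36 in the number 1 arrays and 9.71 and 9.36 in the number 2 arrays. Its difference of 1.05 (SE 0.10) had the lowest p of the members (limma adjusted p = 0.0122). ABCA1, the pump that loads cholesterol on apolipoproteins and an LXR target, read 5.97 and 6.11 against 6.85 and 7.39, a difference of 1.08 (SE 0.13, limma adjusted p = 0.0148). NPC1, which exports cholesterol from lysosomes, differed by 0.20 (adjusted p = 0.297) and ABCG1 by 0.01.

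**Figure D2:**
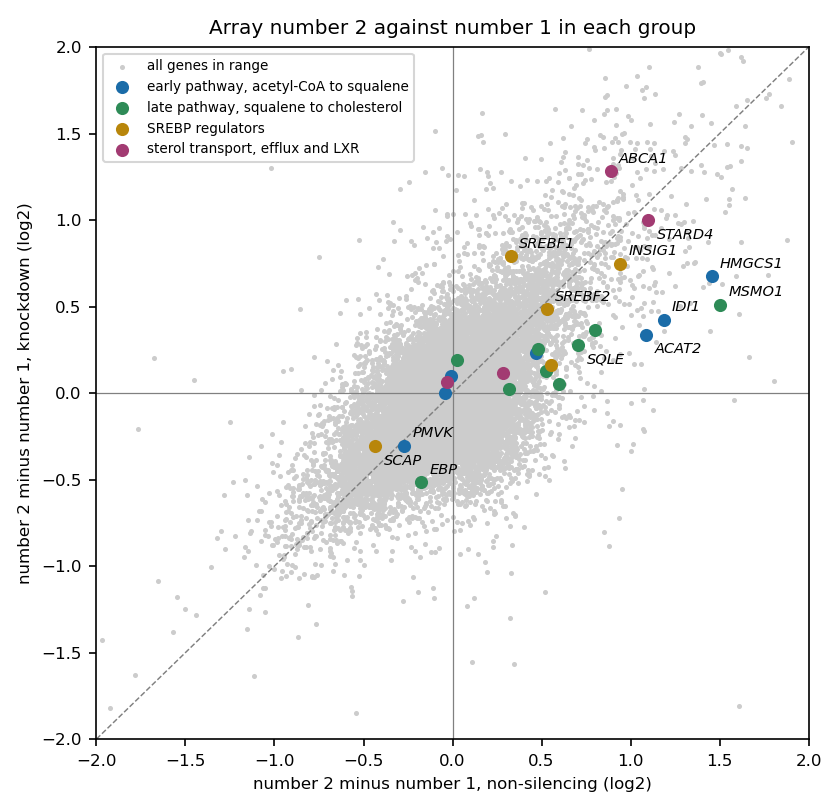
Number 2 minus number 1 (log2) in the non-silencing arrays (horizontal axis) and in the knockdown arrays (vertical axis) for all genes within the axes (grey) and the measured sterol genes (coloured by role), with equality dashed. The members lie mostly in the upper right, and those of the synthesis arms mostly below the dashed line, as MSMO1 does at 1.504 and 0.51.

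For most synthesis genes number 2 minus number 1 had a higher signed value in the non-silencing arrays than in the knockdown arrays. Over the 16 measured genes of both arms it had a median of 0.50 under non-silencing and 0.21 under knockdown. The signed value was higher under non-silencing for 13 of the 16, against 51.2% of all genes. These 13 include EBP (-0.18 and -0.51) and PMVK (-0.27 and -0.30), which lay further below 0 under knockdown. HMGCS1 differed by 1.46 and 0.68, MSMO1 by 1.504 and 0.51, IDI1 by 1.19 and 0.42 and ACAT2 by 1.09 and 0.34, in non-silencing and in knockdown. By contrast STARD4 differed by 1.1 and 1.0 and SREBF2 by 0.53 and 0.49, while SREBF1 (0.33 and 0.79) and ABCA1 (0.89 and 1.28) had the larger value in knockdown. The dimmer probe sets of SREBF2 gave 0.44 and 0.19, and 0.23 and 0.14, in non-silencing and in knockdown. With 1 array for each group and number, these differences between the groups have no test.

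Genes with several probe sets gave a check within the arrays. The 3 probe sets of INSIG1 differed by 0.85, 1.28 and 1.53 from the brightest to the dimmest, and both of HMGCS1 by 1.07 and 1.03. The 4 of SQLE differed by 0.49, 0.30, 1.04 and 1.93. Both bright probe sets of IDI1 gave 0.80 and 0.75, and its dimmer ones -0.13 and -0.16. Both bright probe sets of ABCA1 gave 1.08 and 0.89, and its 2 dim ones, below the median of all values, -0.04 and -0.19. All 4 of EBP lay below 0, from -0.41 to -0.22. The bright IDI1 probe sets and that of HSD17B7 are of a type that may also bind similar sequences, so their values are uncertain.

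**Figure D3:**
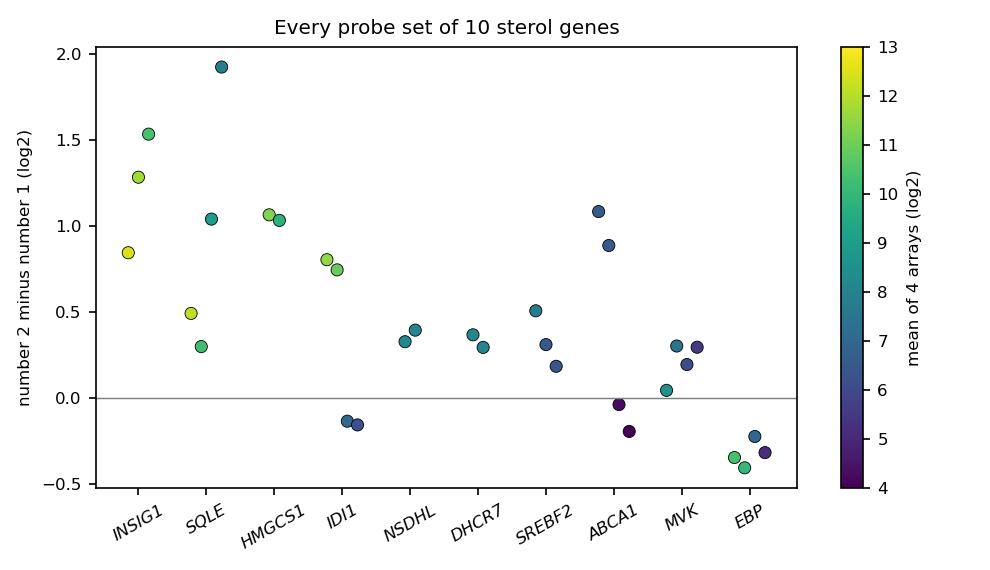
Number 2 minus number 1 (log2, mean of both groups) for every probe set of 10 sterol genes, ordered within a gene from the brightest at the left and coloured by the mean of the 4 arrays (log2). For INSIG1 the brightest of 3 probe sets has the smallest difference (0.85), and for IDI1 and ABCA1 the 2 dimmest probe sets lie below 0.

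Promoter sequences are shown for the 6 genes that passed between the array numbers. SREBP factors are known to act beside the factor NF-Y, which binds CCAAT boxes. Whether these factors have a part in the differences between the array numbers was not tested. The sequences are the 250 bases before the first listed RefSeq start, GRCh38.p14, written from 5′ to 3′ on the gene's strand. Capitals mark TCACNCCA, a sterol regulatory element core, CACGTG, an E-box, and CCAAT, each searched on both strands, so that a CCAAT box on the other strand reads ATTGG. Matches of different motifs were allowed to overlap.
SREBF2, chr22:41832855-41833104, plus strand: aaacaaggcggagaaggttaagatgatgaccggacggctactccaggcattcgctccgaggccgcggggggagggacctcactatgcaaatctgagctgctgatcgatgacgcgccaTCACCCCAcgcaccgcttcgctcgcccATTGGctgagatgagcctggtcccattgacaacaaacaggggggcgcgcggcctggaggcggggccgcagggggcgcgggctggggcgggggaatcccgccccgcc
INSIG1, chr7:155297628-155297877, plus strand: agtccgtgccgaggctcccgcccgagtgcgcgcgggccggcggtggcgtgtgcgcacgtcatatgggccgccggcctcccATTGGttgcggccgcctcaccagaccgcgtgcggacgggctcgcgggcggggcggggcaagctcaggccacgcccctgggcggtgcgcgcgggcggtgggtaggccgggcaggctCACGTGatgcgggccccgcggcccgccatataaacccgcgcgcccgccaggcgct
MSMO1, chr4:165327419-165327668, plus strand: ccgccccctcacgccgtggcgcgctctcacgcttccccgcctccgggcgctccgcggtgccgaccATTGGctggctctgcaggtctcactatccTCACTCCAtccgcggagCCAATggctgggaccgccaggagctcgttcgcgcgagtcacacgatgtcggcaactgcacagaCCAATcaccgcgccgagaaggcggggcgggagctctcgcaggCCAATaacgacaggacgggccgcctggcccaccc
HMGCS1, chr5:43313413-43313662, minus strand: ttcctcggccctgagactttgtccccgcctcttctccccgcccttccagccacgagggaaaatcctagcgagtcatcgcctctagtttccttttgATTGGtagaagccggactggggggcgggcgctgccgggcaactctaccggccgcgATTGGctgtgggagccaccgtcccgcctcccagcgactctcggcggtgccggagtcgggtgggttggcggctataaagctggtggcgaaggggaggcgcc
STARD4, chr5:111512536-111512785, minus strand: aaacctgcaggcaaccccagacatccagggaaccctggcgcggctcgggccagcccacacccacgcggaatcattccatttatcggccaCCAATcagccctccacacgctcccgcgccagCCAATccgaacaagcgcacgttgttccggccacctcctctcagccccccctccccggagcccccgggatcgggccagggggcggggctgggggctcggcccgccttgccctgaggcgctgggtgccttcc
ABCA1, chr9:104928156-104928405, minus strand: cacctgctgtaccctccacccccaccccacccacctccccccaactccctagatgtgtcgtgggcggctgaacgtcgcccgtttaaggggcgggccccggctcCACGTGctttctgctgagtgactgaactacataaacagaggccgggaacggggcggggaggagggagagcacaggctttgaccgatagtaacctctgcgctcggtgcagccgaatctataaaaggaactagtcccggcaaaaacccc

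SREBF2 carries both a sterol element and a CCAAT box, INSIG1 an E-box and a CCAAT box, and MSMO1 a sterol element among 4 CCAAT boxes. HMGCS1 and STARD4 each have a pair of CCAAT boxes, and ABCA1 has an E-box alone. A window was found for 24 of the 28 listed genes. Of these 15 (62.5%) hold a CCAAT box, against 33.0% of the 27303 gene promoters of the same length. The sterol element core was found in 3 of the 24 (12.5%, against 3.18% of all) and the E-box in 4 (16.7%, against 6.49%). CCAAT boxes were present in 5 of the 6 genes that passed and in 10 of the 16 other measured genes with a window. These matches describe letters, not binding, and several genes have more than 1 start.

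Neighbouring pathways lay on both sides of 0 between the array numbers. From 6 lists of other lipid and sterol genes 67 of 76 were measured, of which 5 were called higher and 3 lower, with a median of -0.04. Together these are 11.9% of the 67, near the 9.85% of all genes (5.41% higher and 4.45% lower). The genes named below are therefore single values and not a result about the lists. Among genes of fatty acid synthesis 11 of 14 lay above 0 with a median of 0.13, and the stearoyl desaturase gene SCD passed at 0.53 (limma adjusted p = 0.0452). The SREBP-processing protease gene MBTPS2 differed by 0.74 (adjusted p = 0.0215) and the ubiquitin-conjugating enzyme gene UBE2G2 by -0.57 (adjusted p = 0.0291), the only 2 of 9 in their list that passed.

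Genes that carry mevalonate products elsewhere, to prenyl groups, dolichol and ubiquinone, read lower in 11 of 16 cases, with a median of -0.18. PDSS1, which builds the ubiquinone side chain, fell by 0.62 (limma adjusted p = 0.0243), and FNTB, a farnesyltransferase subunit gene, was higher by 0.70 (adjusted p = 0.0235). In the list of uptake, storage and lysosomal export, LIPA, the lysosomal acid lipase gene, was higher by 0.63 (adjusted p = 0.0455) and the sterol carrier gene STARD3 lower, at -0.54 (adjusted p = 0.0356), with a median of -0.08 over 15 genes. MYLIP, an LXR target that marks lipoprotein receptors for degradation, was higher by 0.58 (adjusted p = 0.0327), the only 1 of 6 in its list to pass. Of the other LXR partners and targets 4 of 5 lay below 0, among them the phospholipid enzyme gene LPCAT3 at -0.33 (adjusted p = 0.0990), and the median of the 6 was -0.14. None of 7 oxysterol and bile acid enzyme genes passed in limma, nor did any at an unadjusted p under 0.05.

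**Figure D4:**
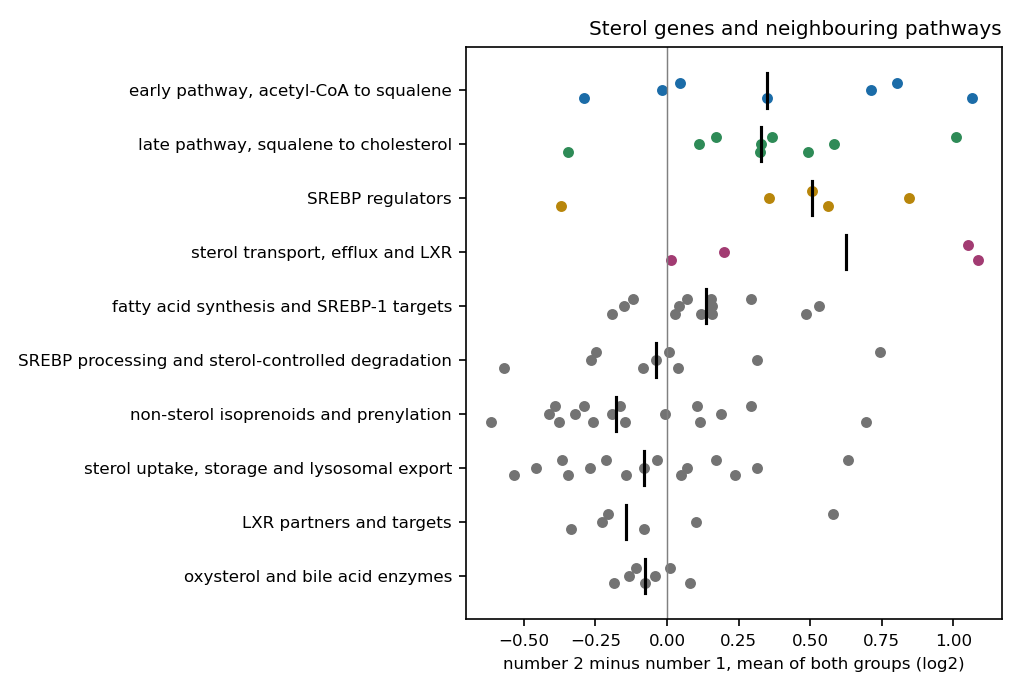
Number 2 minus number 1 (log2, mean of both groups) for each measured gene of the 4 roles (coloured) and of 6 lists of neighbouring pathways (grey), with the median of each as a black bar. The 4 roles have medians from 0.33 to 0.62, and the grey lists from -0.18 to 0.13.

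Other measures also moved with the array number. The log2 ratio of the 3′ to the 5′ control probe sets of beta-actin was 1.31 and 1.33 in the number 1 arrays and 0.97 and 0.97 in the number 2 arrays, and that of GAPDH 0.32 and 0.29 against 0.21 and 0.26. Among the Hodgkin cell markers 3 of 9 passed, all lower in the number 2 arrays (TNFRSF8, IRF4 and BATF3), and the summed linear signal of the 9 was 9636 and 11771 against 7902 and 8675. Of the 23 markers of other cell types CD14 was lower, at -1.10, and COL1A1 higher by 0.90, and no other passed. Their summed linear signal was 2882 and 3069 in the number 1 arrays (lowest first). In the number 2 arrays it was 2774 and 3084, so that the pooled ranges overlapped. Within each cell type the sums of the array numbers did not overlap. For B cells they were 402 to 416 in number 1 against 355 to 368 in number 2. For T cells they were 1462 to 1523 against 1075 to 1219, and for macrophages 405 to 433 against 329 to 333. Those of fibroblasts went the other way, at 524 to 786 against 1015 to 1164. The part of these measures in the differences of the sterol genes was not tested. The number of members called depends on how the variance is modelled, and so does the number of all 19775 genes. With no group term in limma 2 members passed (INSIG1 and STARD4), and 533 of all genes. In an unmoderated linear model 0 members and 0 of all genes passed. With a variance trend 16 members passed, and 3743 of all genes, against 1948 in the main setting.

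Between knockdown and non-silencing, the sterol genes lay on both sides of 0. Of the 25 measured genes 12 lay above 0 and 13 below, with a median knockdown minus non-silencing difference of -0.03, against -0.01 over all genes. The sign of this median was not stable. It was -0.25 or 0.25 when non-silencing array 1 or 2 was dropped, and 0.12 or -0.0841 when knockdown array 1 or 2 was dropped. With an array dropped the groups no longer hold the same array numbers. The difference then takes in part of number 2 minus number 1, so these values do not measure the knockdown difference alone. With each gene's probe sets averaged it was 0.0269. In limma 0 members passed, against 0% of all genes, and 0 members had an unadjusted p under 0.05, against 2.57% of all genes. An unmoderated linear model also called 0. Both knockdown arrays lay above both non-silencing arrays for NPC1 alone, and below them for MVK, MVD and ABCG1, while 12.4% of all genes were apart upward and 15% downward (27.4% together). The limma adjusted p was 1.0 for each of the 25. PTPN1, the silenced gene, differed by -1.10 (SE 0.18) and did not pass either (limma adjusted p = 0.769). A lack of calls in this fit therefore does not show that the sterol genes were unchanged.

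The 4 largest differences were in a regulator and in transport genes. SREBF1 read 7.84 and 8.17 under non-silencing and 7.19 and 7.98 under knockdown, so that the groups overlap. Its means were 8.01 ± 0.23 (SD, n = 2) and 7.59 ± 0.56 (SD, n = 2), and the difference of -0.42 (SE 0.30) was -0.65 in number 1 and -0.19 in number 2. Without knockdown array 1 the SREBF1 difference was -0.0255, and without knockdown array 2 it was -0.82. ABCA1 had means of 6.41 ± 0.63 and 6.75 ± 0.91, a difference of 0.34 (SE 0.51) that was 0.14 and 0.54 within the numbers. Its next brightest probe set differed by 0.15. NPC1 read 8.17 and 8.46 against 8.58 and 8.70 without overlap, a difference of 0.32 (SE 0.15) that was 0.41 and 0.24 within the numbers. From the brighter to the dimmest, the other NPC1 probe sets differed by 0.02, -0.02 and 0.25, and with all averaged NPC1 differed by 0.14.

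STARD4 differed by -0.30 (SE 0.48), at -0.25 and -0.35 within the numbers, with groups that overlap since the array numbers lay far apart. PMVK differed by -0.21 (SE 0.18), at -0.19 and -0.23, and FDPS by -0.19 (SE 0.20), at -0.07 and -0.31. These 6 genes each had the same sign in both numbers, but none passed the test. Leaving out 1 array turned the sign of 3 of them, with ranges of -0.30 to 0.98 for ABCA1, -0.85 to 0.25 for STARD4 and -0.42 to 0.0479 for FDPS. These ranges take in part of the difference between the array numbers, since the groups are then unequal in number. The remaining 19 differences lay between -0.12 and 0.18.

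Most synthesis genes, in contrast, changed direction between the array numbers. Between the number 1 arrays, 11 of the 16 genes of both arms were higher in knockdown, with a median of 0.18. Between the number 2 arrays, 15 of the 16 were lower, with a median of -0.20, and the exception was TM7SF2 at 0.11. Over all genes the medians were 0.00 and -0.01. MSMO1 was higher by 0.68 in number 1 and differed by -0.31 in number 2, ACAT2 by 0.44 and -0.31, HMGCS1 by 0.43 and -0.35, and IDI1 by 0.31 and -0.45. SQLE (0.39 and -0.04) and SC5D (0.34 and -0.10) were near 0 in number 2.

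A value above 0 in number 1 and below 0 in number 2 was found for 8 of the 9 late arm genes, 3 of the 7 early arm genes, 2 of the 5 regulators (INSIG1 and INSIG2) and 0 of the 4 transport genes. The total of 13 of 25 compares with 22.5% of all genes. This is the same arithmetic as the higher signed value of number 2 minus number 1 in the non-silencing arrays, so it adds no second observation, and it has no test, since each value rests on 1 array a side. The mean knockdown difference of these genes near 0 therefore averages opposite values.

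**Figure D5:**
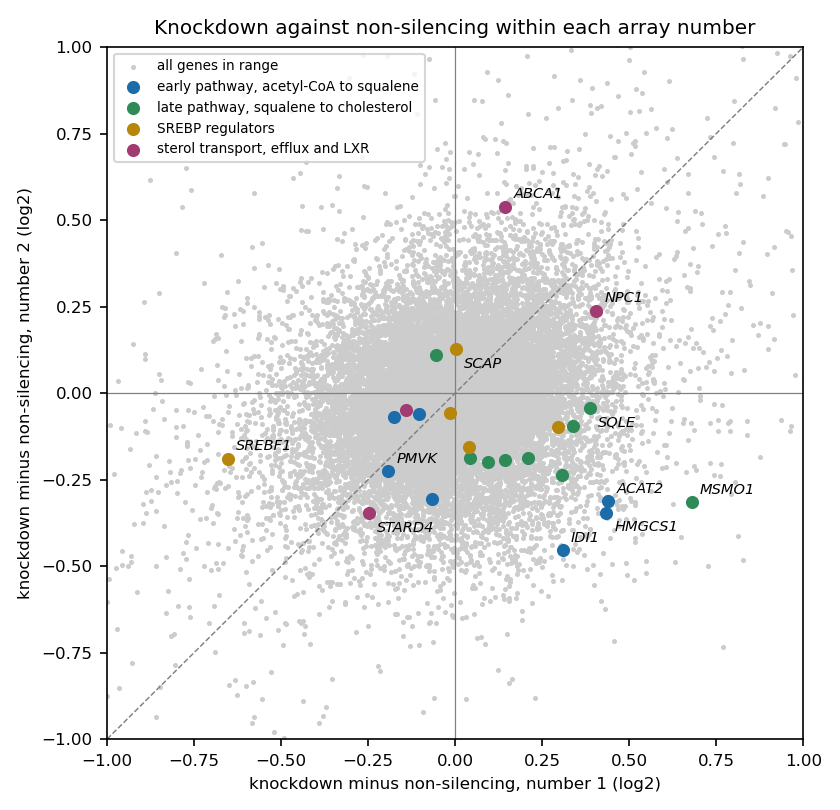
Knockdown minus non-silencing (log2) in array number 1 (horizontal axis) and in number 2 (vertical axis), for all genes within the axes (grey) and the sterol genes (coloured by role), with equality dashed. Most synthesis genes sit in the lower right, with MSMO1 at 0.68 and -0.31, whereas SREBF1, STARD4 and PMVK lie lower left and NPC1 and ABCA1 upper right.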

How the data were processed

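The data are 4 Affymetrix arrays of KM-H2 RNA, labelled after 2 cycles of amplification per the labels' protocols, a step that can favour 3′ ends. The authors deposited log2 values from RMA, as named in the submitters' processing notes. That method includes quantile normalization, which evens out differences in total signal between arrays. The RMA software's version was not given in the sources used here. Of 54675 probe sets, 41097 had 1 gene symbol, 1801 several and 11777 none in the platform annotation. Symbols were looked up in RefSeq (GRCh38.p14), where 54 identifiers were not found. Gene values were fitted with limma 3.58.1 (R 4.3.3) without further normalization, with Benjamini-Hochberg adjustment over all genes. The knockdown fit had no covariate and 2 residual degrees of freedom, and the number fit had the group as a term and 1. Both limma fits were tested on simulated data with known changes. The simulated arrays held independent noise, and no difference between array numbers in the knockdown test. That test therefore does not show how the knockdown fit performs on these arrays. Array values were printed for the 5 brightest and 5 dimmest members and for the 6 largest differences in each contrast, with up to 4 genes named from a wider list, and motifs were chosen after values were seen. The members and lists were chosen with earlier results of these data known. Promoters came from RefSeq.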

Additional observations from a re-analysis of the deposited data

Results flagged for a closer look

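For 4 early and late arm genes the knockdown minus non-silencing difference was at least 0.3 on the log2 scale in opposite directions in the array numbers. The value in number 2 minus that in number 1 was -0.75 for ACAT2, -0.78 for HMGCS1, -0.76 for IDI1 and -0.99 for MSMO1. The difference between the numbers was not tested, since each side has 1 array, and the minimum of 0.3 was chosen after the values were seen.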

How the results depend on the processing

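Members called between the array numbers were 6 in the main setting and 10 after quantile normalization. They were 12 with dim genes left out, 16 with a variance trend, 2 with no group term and 0 in an unmoderated linear model. All genes called were 3048 of the 12584 kept when dim genes were left out. They were 3743 with the trend, 533 with no group term and 0 in the unmoderated model, against 1948 of 19775 in the main setting. For quantile normalization the count over all genes is not given here, so the 10 members called there cannot be set against it. The 6 members were among those called after quantile normalization, centring, the filter on dim genes and the trend, and SREBF2 alone was lost with probe sets averaged, where SQLE was called. Leaving out an array leaves this fit no residual degree of freedom; the members' median was then 0.23 to 0.53. Between knockdown and non-silencing, 0 members were called under every setting run, and all genes called were 1 with a variance trend and 0 to 1 without 1 array. With the replicate block 72 genes and 0 members passed; across genes the number differences of the groups correlated at 0.65, and the labels do not say what same-numbered arrays share, so the comparison was made without the block. The knockdown median was -0.25 without non-silencing array 1 and 0.25 without non-silencing array 2. Without 1 array the member differences whose sign turned ranged, for ACAT2 from -0.48 to 0.61, HMGCS1 from -0.68 to 0.77, IDI1 from -0.67 to 0.52, FDPS from -0.42 to 0.0479, SQLE from -0.18 to 0.53, LSS from -0.21 to 0.11, TM7SF2 from -0.0697 to 0.12, MSMO1 from -0.57 to 0.93, NSDHL from -0.25 to 0.27, HSD17B7 from -0.26 to 0.33, EBP from -0.28 to 0.23, SC5D from -0.28 to 0.52, DHCR7 from -0.31 to 0.17, INSIG1 from -0.53 to 0.41, INSIG2 from -0.18 to 0.37, SREBF2 from -0.30 to 0.23, SCAP from -0.15 to 0.28, STARD4 from -0.85 to 0.25, ABCA1 from -0.30 to 0.98. Averaging each gene's probe sets gave 0.0523 for MVK, 0.0311 for EBP and 0.0207 for INSIG1, and quantile normalization gave -0.0109 for NSDHL. Between the numbers ABCG1 was -0.0157 after centring and -0.11 with probe sets averaged. In knockdown minus non-silencing, leaving out 1 array makes the groups unequal in array number. Those values therefore take in part of the difference between the numbers. The cause of the other shifts was not tested. Dim probe sets, such as those of ABCG1 and MVD, limit what can be seen.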

Other observations

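In the lists of neighbouring pathways 41 of 67 genes lay above 0 in knockdown minus non-silencing, with a median of 0.05, and none passed in limma. An unadjusted p under 0.05 was found for RNF145 and SMPDL3A alone, 2 of 67, against 2.57% of all genes. Both knockdown arrays lay above both non-silencing arrays for 15 of the 67 and below them for 8, against 12.4% and 15% of all genes. RNF145, a ubiquitin ligase gene of the sterol pathway, read 10.47 and 10.52 under non-silencing (number 1, then 2) and 10.997 and 10.78 under knockdown, a difference of 0.40. SMPDL3A, an LXR target that encodes a secreted phosphodiesterase, read 5.39 and 5.57 against 5.85 and 5.88, a difference of 0.39. SPRING1, which supports SREBP processing, differed by 0.41, and NCEH1, a cholesteryl ester hydrolase gene, by 0.48. These 4 genes are among the 15 and were named for the size of their difference. MYLIP differed by -0.41, at -0.31 and -0.51 within the array numbers.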
